A study of Mus musculus with 9 samples.

Results

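Macrophages sorted from the testis were compared with macrophages sorted from the epididymis of C57BL/6J mice by RNA sequencing. The comparison covers 10522 of the 15434 genes in the deposited table, those with a normalised read count of 10 or more in at least 3 of the 6 testis and epididymis libraries. Each organ gave 3 libraries. Cells were fresh, without culture or treatment, and all groups were sorted by 1 gate on live cells positive for CD45, CD11b and F4/80 and negative for Ly6C and CD11c. Brain libraries from the same gate, 3 in number, entered the fit only to add to the estimate of the spread. The labels give mouse number 1 for every testis library, 2 for every epididymis library and 3 for every brain library, and no ages. Organ and mouse therefore cannot be told apart, and the p-values rest on a spread among libraries that may be technical. The extraction text also speaks of pooling testis and epididymis suspensions in a way that can be read as pooling within or across the organs. The groups here follow the labels.

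Resident macrophages live in both organs. In the testis they lie in the interstitium beside the steroid-producing Leydig cells and around the seminiferous tubules, and in the epididymis they lie in and around the epithelium of the duct through which maturing sperm pass. Macrophages clear dying cells and debris through surface receptors, digest what they take up in lysosomes, and export the cholesterol they recover on apolipoproteins.

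Reads assigned to genes numbered from 2966349 to 4458688 per library. Pearson's r across the members, which are not independent replicates, ran from 0.669 to 0.753 for pairs of testis libraries and from 0.641 to 0.665 for pairs of epididymis libraries. Pairs of one testis and one epididymis library had r from 0.558 to 0.651. The first principal component of the 6 libraries (31.3% of the variance) separated the organs. The second (22.9%) separated testis replicate 1 and epididymis replicate 3 from the 4 others, so counts are also given without these libraries. Of the sort markers, Ptprc (CD45) was at 3004, 3152 and 2259.5 in testis and 2727, 2575 and 3529 in epididymis, and Adgre1 (F4/80) at 100.4, 231 and 240.2 and 684, 346 and 331. Itgam (CD11b) was present in every library but lower in testis, at 451, 348 and 283 against 1134, 901 and 1247. For Adgre1 too, every testis library lay below every epididymis library. Itgax, which encodes the CD11c that the gate excludes, was at 265, 209 and 294 in epididymis and at 0, 0 and 21.4 in testis.

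Transcripts known from other cells were present in the same libraries, and the sums of some marker lists moved with the organ. The 9 Leydig cell genes in the table summed to between 1647 and 3952 normalised reads in testis libraries and between 108.2 and 292.6 in epididymis libraries, and 5 of the 9 had no read in epididymis. The 25 T and NK cell genes summed to between 1800 and 2136 in testis and between 444.2 and 563.7 in epididymis, with 6 at 0 in every epididymis library. The 29 genes of the epididymal epithelium summed to between 251.6 and 330.9 in testis and between 840.9 and 1191 in epididymis, with 17 at 0 in every testis library. The 28 germ cell genes summed to between 1952 and 2979 in testis and between 942.3 and 1566 in epididymis, and the 16 dendritic cell genes to between 1056 and 1337 and between 450.7 and 659.1. The 14 genes of peritubular myoid, stromal and smooth muscle cells summed to between 433 and 525.9 in testis and between 122.9 and 271.1 in epididymis, with 2 at 0 in every testis library and 6 in every epididymis library. The 8 genes of mast cells, basophils and eosinophils summed to between 141.4 and 308.5 and between 106 and 135.5, with 4 and 5 at 0. The 7 Sertoli cell genes summed to between 313.7 and 608.7 in testis and between 1171 and 1585 in epididymis, but most of this was Trf, and the other 6 overlapped at between 58.1 and 133 and between 50.9 and 211. Of the 12 lists these 8 did not overlap between the organs, while those of endothelial cells, B cells, neutrophils, and erythroid cells and platelets did. Without Trf the Sertoli cell list overlapped, and so did the list of mast cells, basophils and eosinophils without Kit. Of single genes, 2249 of 10522 (21.4%) did not overlap between the organs. In sorted bulk material, fewer cells of a type and less RNA per cell cannot be told apart.

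**Figure D1:**
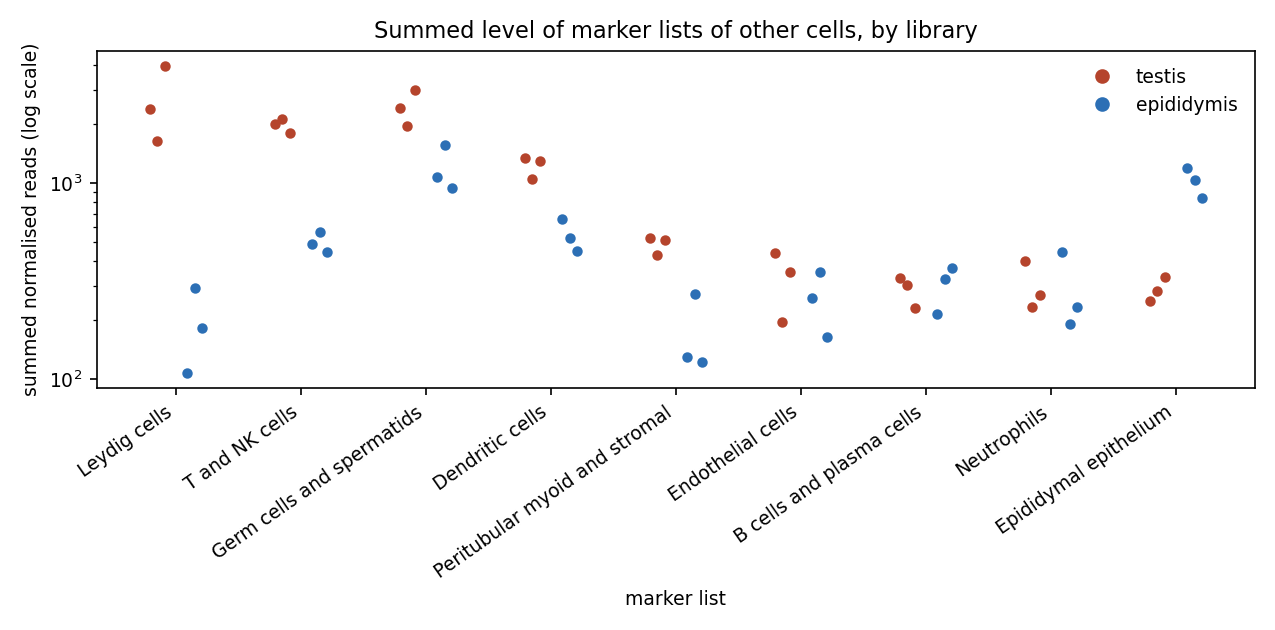
Summed normalised reads of 9 marker lists of other cells (log axis) in each of the 3 testis and 3 epididymis libraries, 1 point per library. The Leydig cell list lay between 1647 and 3952 in testis and between 108.2 and 292.6 in epididymis, and the epididymal epithelium list was higher in epididymis.

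Of the 10522 genes, 516 differed between the organs by limma at a Benjamini-Hochberg adjusted p below 0.05, or 4.9%. These comprised 293 higher in testis (2.78%) and 223 lower in testis (2.12%). The fit over only the 6 libraries of the comparison called 391, or 3.72%, with 242 higher and 149 lower, and 346 of the 516 were among them. The 3 libraries of one organ lay wholly above those of the other in 2249 genes, 21.4% of all, with testis above in 1242 and below in 1007. An unadjusted limma p below 0.05 was reached by 1968 of the 10522 genes, in either direction. EdgeR called 195 higher and 168 lower over all genes, and DESeq2 393 and 305. Counts by these measures on the lists below are to be read against those numbers. Without testis replicate 1 and epididymis replicate 3, 197 genes were called, 91 higher and 106 lower, and 180 of them were among the 516. A fit with no variance trend, in which the prior variance does not depend on the level, called 126 higher and 62 lower, and 85 of the 117 called genes whose statistics are given here lost their call in it. Differences are given as log2(value + 1) in testis minus epididymis, which understates the change of low genes, so a negative value is lower in testis. Their median over all genes was 0.09, and it moved by 0.17 when every library was scaled to the same total, which turned the split to 227 higher and 307 lower.

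Of the 516 called genes, 47 encode ribosomal proteins and 35 belong to lists of microglia or of stress genes, which are described only where another list holds them. The other 434 comprised 223 higher and 211 lower genes. Called genes with 3 or fewer reads in one of the organs numbered 93, of which 75 were higher in testis, and 184 of the 516 share exonic sequence with another annotated gene. The kit was unstranded, so reads of such pairs cannot be told apart.

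**Figure D2:**
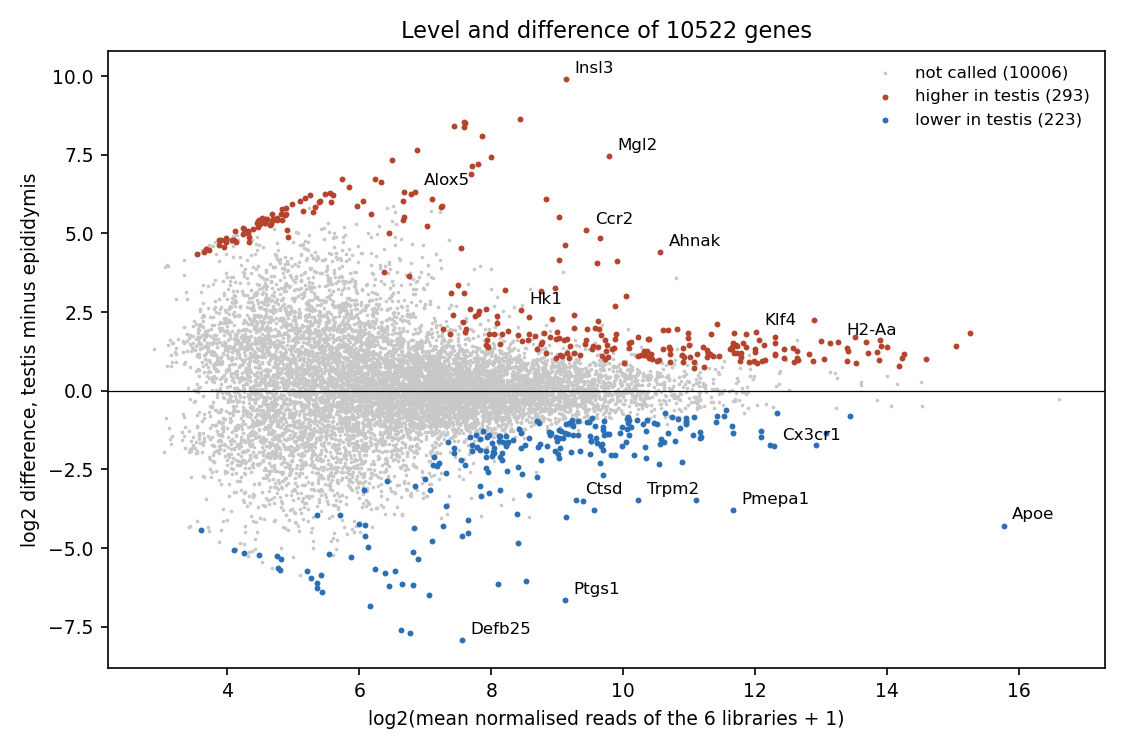
Mean level of each of 10522 genes over the 6 libraries (x axis, log2 of normalised reads + 1) against its log2 difference between testis and epididymis (y axis). The 293 genes higher and 223 lower in testis are coloured, and Apoe lies at the highest level among the genes lower in testis.

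Apoe, which encodes the apolipoprotein that carries cholesterol out of macrophages, was lower in testis. It stood at 6696, 2878 and 8182 normalised reads in the testis libraries and at 102571, 102287 and 112096 in the epididymis libraries, so that no testis library came within reach of an epididymis library (log2 difference -4.29, SE 0.29, limma adjusted p = 1.6e-06). Brain macrophages held 803 on average. Abca1, the transporter that loads cholesterol onto apolipoproteins, was lower as well, at 245, 515 and 661 against 1675, 1741 and 2002 (log2 difference -2.04, SE 0.31, limma adjusted p = 0.0014). Srebf2, the transcription factor of cholesterol synthesis, ran the other way, at 453, 330.4 and 326 against 58.2, 115 and 44.2 (log2 difference 2.43, SE 0.57, limma adjusted p = 0.025), but was not called in 5 of the 6 fits that left out a testis or epididymis library. These were the only called members among 34 genes of cholesterol synthesis, uptake and export, whose median of 0.47 lay above that of all genes. Abcg1, which exports cholesterol alongside Abca1, was at 11.4, 64.6 and 167 in testis and 207, 252 and 161 in epididymis and did not pass (limma adjusted p = 0.18). Apoe and Abca1 kept their call whichever single testis or epididymis library was left out, and without both testis replicate 1 and epididymis replicate 3 (limma adjusted p = 0.0018 and 0.025).

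**Figure D3:**
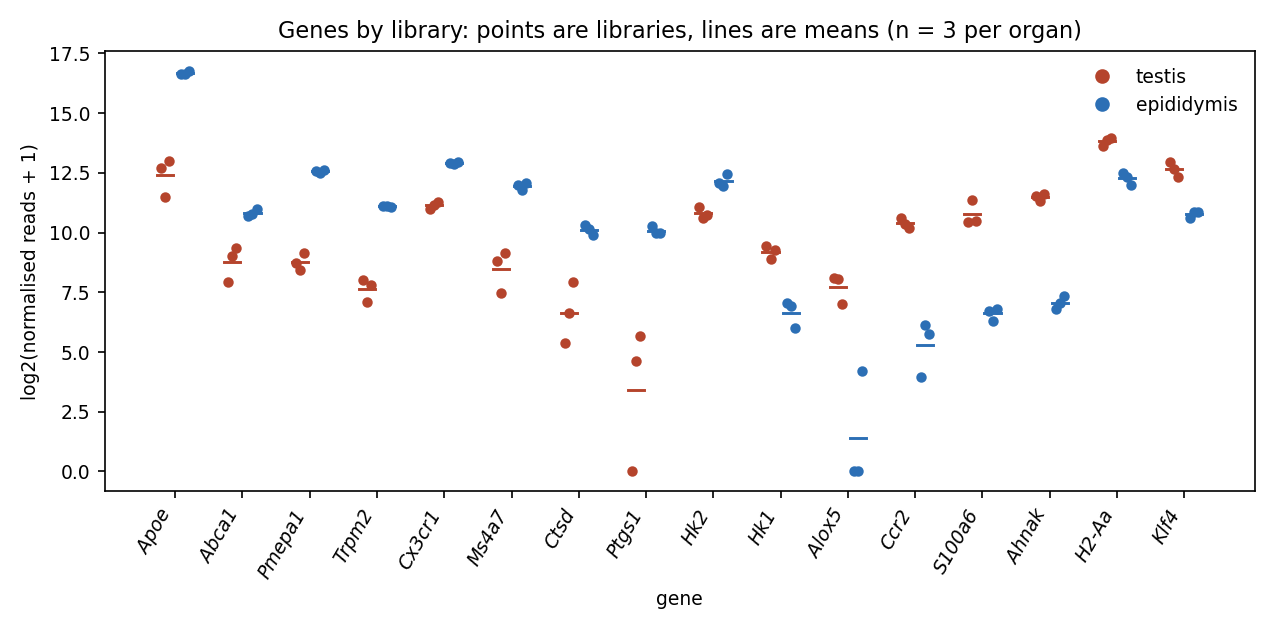
Normalised reads (log2 of value + 1) of 16 genes in the 3 testis and 3 epididymis libraries, 1 point per library with a line at the mean. For every gene shown the libraries of the organs do not overlap, as for Apoe at 6696, 2878 and 8182 in testis and 102571, 102287 and 112096 in epididymis.

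Outside the microglial list, the lysosomal list held the most genes lower in testis of the lists examined. Of 45 members on the list of lysosomal proteases, hydrolases and membrane proteins, 11 were lower, none was higher and 34 did not pass, with a median of -1.04 against 0.09 over all genes. By unadjusted p below 0.05, limma had 22 lower and 1 higher, and edgeR called 11 lower and DESeq2 13 lower with none higher by either. All 3 testis libraries lay below all 3 epididymis libraries in 20 members and above them in 1, against 1007 and 1242 of all 10522 genes. With equal totals per library 16 were lower, without testis replicate 1 and epididymis replicate 3 it was 5, and in the fit with no variance trend 1 was called.

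Ctsd, the aspartic protease cathepsin D, stood at 40.4, 98.6 and 243 in testis and 1265, 1146 and 958 in epididymis (log2 difference -3.48, SE 0.45, limma adjusted p = 0.00041). Grn, which encodes the lysosomal protein progranulin, stood at 4026, 3328 and 3345 and 8625, 13451 and 13935 (log2 difference -1.72, SE 0.19, limma adjusted p = 0.00016), with exons that overlap Fam171a2. Both genes were lower in every testis library, and the epididymis libraries stood further off for Ctsd. Among the other proteases, Ctsz stood at 330.3, 312 and 444 against 1326, 1008 and 949 (log2 difference -1.60, SE 0.29, limma adjusted p = 0.0048). Ctss, the cysteine protease that trims the invariant chain of MHC class II, stood at 3634, 3723 and 7818 against 15546, 10268 and 10493 (log2 difference -1.33, SE 0.27, limma adjusted p = 0.0096), and testis replicate 3 was the closest to the epididymis libraries. Pla2g15, the lysosomal phospholipase, stood at 129, 208 and 232 against 1144, 534 and 868 (log2 difference -2.13, SE 0.34, limma adjusted p = 0.002). Glycan-degrading enzymes were among the 11 too, including Hexa, Man2b1 and Sgsh, with log2 differences of -1.26, -1.01 and -1.88. So were the membrane proteins Lamp1 (-1.27) and Scarb2 (-1.42). Lamp1 shares exonic sequence with Grtp1, which differed alike (-1.48). Members that did not pass included cathepsin L, at 159, 221 and 437 against 547, 538 and 486 (limma adjusted p = 0.11), and the cysteine protease inhibitor Cst3 and lysozyme Lyz2, with log2 differences of 0.16 and 0.52.

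**Figure D4:**
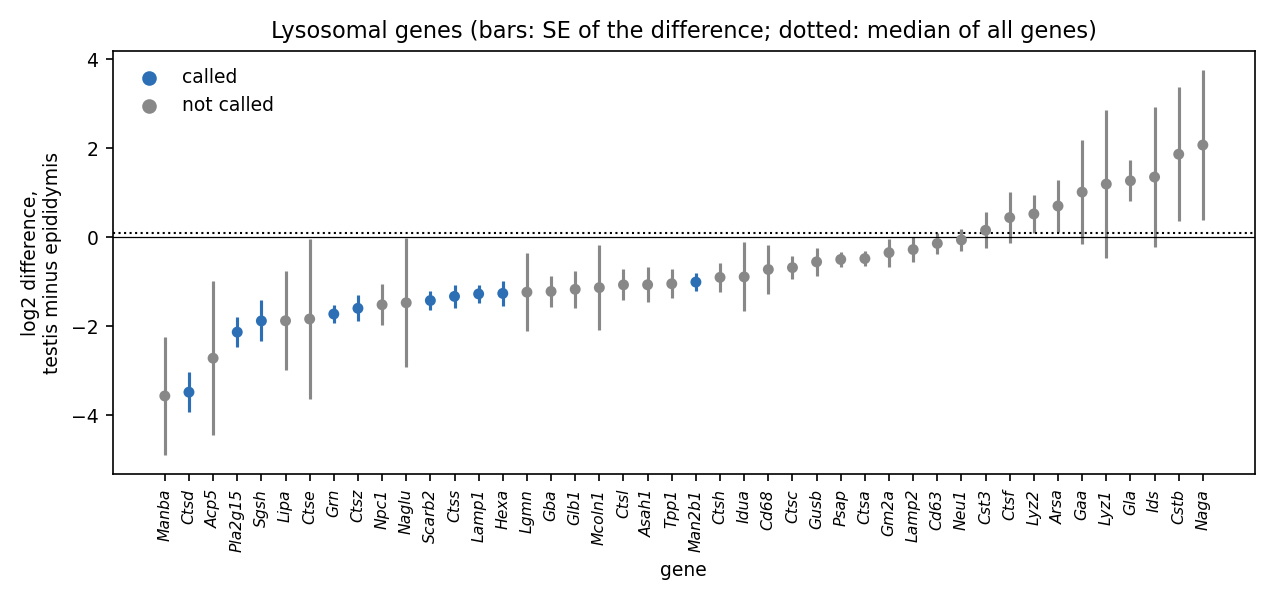
Log2 difference between testis and epididymis, with its standard error, of lysosomal genes in order of size. The called genes are in blue and all lie below 0, and the dotted line marks the median of all genes, 0.09.

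Lysosomal genes are known to share a short element bound by transcription factors of the MiT family, whose core is the E-box CACGTG. In RefSeq promoter windows on GRCm38.p6, read over the 250 bases before the start, 11 of 37 lysosomal members with a window held CACGTG, or 29.7%, against 712 of 8387 members, or 8.49%. The share was 3 of 10 among the called lysosomal genes and 8 of 27 among those not called. Over all genes lower in testis it was 16 of 178 (8.99%) and over all genes higher in testis 21 of 230 (9.13%). CACGTG reads alike on both strands and was one of 10 motifs counted on both strands. Of the others, TCACGTG was in 5.17% of all windows and 24.3% of lysosomal windows and TCACGTGA in 1.66% and 8.11%, and both contain the E-box. The element TGANTCA was in 4.51% of all and 10.8% of lysosomal windows, and TTCCGG in 22.5% and 8.11%. GAGGAAGT was in 2.6% and 5.41%, AGATAA in 6.12% and 8.11%, and CCTTTTCC in 2.72% and 2.7%. TGACGTCA and CTTTCCG were in 2.69% and 4.14% of all windows and in 0 of 37 lysosomal windows. The 3 windows of called genes that hold it are printed because they show how differently the sites are placed, with CACGTG in capitals, 5′ to 3′ on the gene's strand. Ctsd lies on the minus strand at chr7:142387828-142388077, Lamp1 on the plus strand at chr8:13158911-13159160 and Sgsh on the minus strand at chr11:119355511-119355760. A match in these windows is a description of the letters and not of binding.
Ctsd: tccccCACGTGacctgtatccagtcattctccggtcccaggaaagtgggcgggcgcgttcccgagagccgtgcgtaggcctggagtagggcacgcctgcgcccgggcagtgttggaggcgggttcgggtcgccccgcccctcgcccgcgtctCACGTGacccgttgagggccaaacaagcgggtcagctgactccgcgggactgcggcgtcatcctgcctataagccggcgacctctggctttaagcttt
Lamp1: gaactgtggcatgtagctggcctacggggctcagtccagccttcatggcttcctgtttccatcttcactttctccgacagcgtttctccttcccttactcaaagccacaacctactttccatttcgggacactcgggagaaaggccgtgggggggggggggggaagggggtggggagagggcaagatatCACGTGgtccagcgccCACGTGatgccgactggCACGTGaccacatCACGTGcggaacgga
Sgsh: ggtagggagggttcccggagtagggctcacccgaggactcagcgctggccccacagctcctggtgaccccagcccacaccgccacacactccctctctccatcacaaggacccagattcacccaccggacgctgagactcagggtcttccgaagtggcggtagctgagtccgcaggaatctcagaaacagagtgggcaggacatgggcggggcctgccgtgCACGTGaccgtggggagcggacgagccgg
The Ctsd window holds 2 sites, the Lamp1 window 4 and the Sgsh window 1, which begins 29 bases before the start.

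Enzymes that make lipid mediators were split. Of 41 members among phospholipid, sphingolipid and eicosanoid enzymes, 6 were lower and 2 higher in testis. On the prostanoid side, Ptgs1, the constitutive cyclooxygenase, stood at 0, 23.4 and 49.6 in testis and 1234, 1019 and 1003 in epididymis (log2 difference -6.65, SE 0.95, limma adjusted p = 0.0009). Tbxas1, thromboxane synthase, stood at 95.2, 17 and 165 and 735, 605 and 651 (log2 difference -3.33, SE 0.59, limma adjusted p = 0.0039). Hpgds, the prostaglandin D synthase of blood cells, stood at 409, 446 and 501 and 1458, 909.8 and 1291 (log2 difference -1.41, SE 0.23, limma adjusted p = 0.002). For all 3 enzymes every testis library was below every epididymis library. On the leukotriene side, Alox5, the 5-lipoxygenase, stood at 272, 267 and 129 in testis and 0, 0 and 17.2 in epididymis (log2 difference 6.33, SE 1.16, limma adjusted p = 0.0051). Alox5ap, the protein that presents arachidonic acid to it, stood at 904, 687 and 754 and 259, 365 and 102 (log2 difference 1.86, SE 0.39, limma adjusted p = 0.014). Lpcat2, which makes platelet-activating factor and remodels membrane lipid, was lower at 196, 259 and 432 against 1458, 1072 and 931 (log2 difference -2.02, SE 0.29, limma adjusted p = 0.00093), and Sgpl1, which degrades sphingosine phosphate, had a log2 difference of -1.03. The inducible cyclooxygenase Ptgs2 did not pass (limma adjusted p = 0.91). Without testis replicate 1 and epididymis replicate 3, Ptgs1, Hpgds, Lpcat2, Sgpl1 and Alox5 stayed called, while Tbxas1 (adjusted p = 0.058) and Alox5ap (0.089) did not.

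Chemoattractant receptors changed in both directions, with 3 of 21 members higher and 3 lower. Cx3cr1, the receptor for fractalkine, stood at 2001, 2297 and 2516 in testis and 7739, 7424 and 7989.9 in epididymis (log2 difference -1.77, SE 0.16, limma adjusted p = 4.9e-05), and the brain mean was 15456. Ccr2, the receptor that draws monocytes from the marrow, stood at 1548, 1326 and 1154 and 14.5, 68.5 and 52.8 (log2 difference 5.11, SE 0.52, limma adjusted p = 5.3e-05). The organs did not overlap for either gene, and both calls held in every fit that left out a library of these organs. Gpr34, a receptor for lysophosphatidylserine, and Gpr65, an acid-sensing receptor, were lower, with log2 differences of -1.76 and -2.33. For Gpr65 the testis libraries held 405, 578 and 488 and the epididymis libraries 3120.0, 2485 and 1894. Cxcr6 was at 333, 557 and 333 in testis and 21.8, 0 and 0 in epididymis (log2 difference 7.13, SE 1.57, limma adjusted p = 0.017). Ccr7, which guides dendritic cells and T cells to lymph nodes, was at 32.1, 25 and 51.3 in testis with no read in epididymis, at least 12.4-fold higher when each epididymis library is set to a floor of 3 reads, but was not called over the 6 libraries alone (limma adjusted p = 0.11). Such floors cover counting error only. Ccr1, a receptor for CC chemokines, did not pass, at 0, 2.42 and 40.2 in testis against 149, 65.7 and 106 in epididymis. Of 17 chemokines 1 was higher and 2 lower, with a median of 0.73. Cxcl10 was lower (log2 difference -1.92, SE 0.32, limma adjusted p = 0.0024), as was Ccl6 (log2 difference -0.97, SE 0.26, limma adjusted p = 0.044), though not over the 6 libraries (adjusted p = 0.058). Cxcl2 was higher (log2 difference 2.24, SE 0.53, limma adjusted p = 0.026), with testis replicate 3 at 25746 and the other 2 testis libraries at 6595 and 6098. Cxcl10 shares exonic sequence with Art3.

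Receptors for cytokines were more often lower than higher in testis, at 6 lower and 2 higher of 37 members. The lower genes included Il4ra, the receptor chain for interleukin 4 and interleukin 13, at 1294, 1522 and 1129 against 2775, 3171 and 3812 (log2 difference -1.30, SE 0.20, limma adjusted p = 0.0012). The neighbouring gene on chromosome 7, Il21r, stood at 495, 549 and 628 against 1479, 1224 and 1565 (log2 difference -1.35, SE 0.22, limma adjusted p = 0.0018). Csf1r, the receptor for the growth factor on which macrophages depend, stood at 8726, 8564 and 6845 against 12733, 14088 and 15375 (log2 difference -0.81, SE 0.17, limma adjusted p = 0.014). Each of these was lower in every testis library. Tnfrsf11a, the receptor RANK, and Csf2rb, the shared chain of the GM-CSF receptor, were lower with log2 differences of -1.47 and -0.94. Il18r1, the receptor for interleukin 18, was higher, at 1082, 1247 and 639 against 60.9, 51.6 and 46.4 (log2 difference 4.15, SE 0.64, limma adjusted p = 0.0015). Kit, the stem cell factor receptor, was at 73.5, 67.9 and 81.2 with no read in epididymis, at least 25.4-fold higher (log2 difference 6.23, SE 1.43, limma adjusted p = 0.022). Kit also marks mast cells and is the 1 called gene among 3 members of that list, whose other 7 genes overlapped between the organs at between 73.5 and 235 in testis and between 106 and 135.5 in epididymis. The summed reads of the Leydig cell and germ cell lists, given above, also lay above those of epididymis in every testis library. The part of mast, Leydig or germ cells in the level of Kit was not tested. Of 19 cytokine genes none was called by limma, edgeR or DESeq2, with 4 higher and 2 lower at an unadjusted limma p below 0.05. Il1b stood at 466, 301 and 431 in testis and 232, 284 and 189.7 in epididymis, and Il10 at 0, 13.7 and 22.2 and 0, 0 and 0.

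Several genes higher in testis are also known from lymphocytes. Il18r1, Cxcr6, Il2rb, Icos, Rora and the pair Cd163l1 and 5830411N06Rik are all expressed by T cells or innate lymphocytes, Cd163l1 and its neighbour by gamma delta T cells. Cd163l1 stood at 573, 923 and 561 in testis and 3.64, 0 and 0 in epididymis, and 5830411N06Rik, which lies next to it, at 37.3, 171 and 26.5 and 0, 0 and 0. Il2rb, a chain of the interleukin 2 receptor, stood at 343, 263 and 274 and 0, 19.7 and 5.39. Of the T and NK cell list, 4 of 19 members were higher (Cd3d, Cd8a, Lck and Il2rb), 0 lower and 15 did not pass, with a median of 3.07, while edgeR called 2 higher and none was called without testis replicate 1 and epididymis replicate 3. Cd3d stood at 632, 459.7 and 166 in testis and 65.5, 86.3 and 37.7 in epididymis (log2 difference 2.59, SE 0.60, limma adjusted p = 0.024), and Cd3e at 102, 86.4 and 42.7 and 0, 0 and 42. Chosen after their values were seen, Icos, Cd96, Gimap4, Gimap3, Sit1 and Ctsw, all lymphocyte genes, were higher as well, with limma adjusted p between 0.018 and 0.0467 over the 9 libraries and between 0.0529 and 0.18 over the 6. The part that these cells have in the higher level of Il18r1, Cxcr6, Ccr2 or Cd163l1 was not tested.

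Other surface receptors were mixed. Mgl2, a C-type lectin that binds galactose and N-acetylgalactosamine, was the 1 called member of 14 lectin receptors, at 1689, 1938 and 1629 in testis against 10.0, 42.2 and 1.08 in epididymis (log2 difference 7.46, SE 1.24, limma adjusted p = 0.0024). The mannose receptor gene Mrc1 stood at 1895, 2248 and 2631 against 1645, 1726 and 1523 and did not pass (limma adjusted p = 0.43). Stab1, a scavenger receptor for modified lipoprotein, was lower at 266, 396 and 527 against 1157, 1127 and 1413 (log2 difference -1.68, SE 0.27, limma adjusted p = 0.0018). For Mgl2 and Stab1 alike, no library of one organ entered the range of the other. Of 15 receptors and bridging proteins for apoptotic cells, 3 were lower and none higher, with a median of -1.44, while at an unadjusted limma p below 0.05 there were 6 lower and 0 higher, and edgeR called 3 lower. Without testis replicate 1 and epididymis replicate 3 the median was -0.53 and 2 were lower. The 3 genes were Mertk, the receptor tyrosine kinase, at 536, 241 and 358 against 933, 1059 and 1513 (log2 difference -1.67, SE 0.29, limma adjusted p = 0.0037), the transglutaminase Tgm2 at 114, 83.2 and 76.9 against 345, 355 and 477 (log2 difference -2.10, SE 0.40, limma adjusted p = 0.007), and the integrin chain Itgb5 (-1.74). Axl, the sister receptor of Mertk, was at 311, 575 and 619.8 and 683, 812 and 774 and did not pass (limma adjusted p = 0.71).

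Among immunoglobulin-type receptors, Cd84, a self-binding receptor of the SLAM family, stood at 165, 225 and 225 in testis and 835, 823 and 824 in epididymis (log2 difference -2.02, SE 0.24, limma adjusted p = 0.00028). Lair1, an inhibitory receptor for collagen, stood at 1357, 641 and 861 and 2625, 2311 and 2004 (log2 difference -1.34, SE 0.24, limma adjusted p = 0.0047). Both were lower in every testis library and kept their call in every fit that left out 1 testis or epididymis library. Ms4a7, a tetraspan membrane protein of macrophages, was lower at 446, 178 and 570.2 against 4073, 3567 and 4329.7 (log2 difference -3.48, SE 0.36, limma adjusted p = 5.3e-05), and the brain mean was 126. None of 10 Fc receptors and adaptors was called by limma or edgeR, with 2 lower at an unadjusted p below 0.05 and 1 lower by DESeq2. Tyrobp, the adaptor DAP12, stood at 1876, 2244 and 3102 and 3104, 2261 and 2003. Of 20 complement genes, 4 were lower and 1 higher. C3ar1, the receptor for C3a, stood at 566, 577 and 763 and 1758, 1406 and 1293 (log2 difference -1.23, SE 0.24, limma adjusted p = 0.0084), whereas of the chains of C1q, C1qc was lower (log2 difference -0.81, SE 0.20, limma adjusted p = 0.036; 0.057 over the 6 libraries) and C1qa and C1qb did not pass (adjusted p = 0.86 and 0.31). The 1 higher complement gene, C1s1, was at 61.1, 21 and 14.5 with no read in epididymis and was not called over the 6 libraries (adjusted p = 0.16).

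Sensors of microbes and of nucleic acid were lower where they were called, at 5 lower and 0 higher of 41 members, with a median of -0.41. At an unadjusted limma p below 0.05 there were 9 lower and 1 higher, and edgeR called 5 lower and 1 higher. Cd180, a Toll-like receptor homologue that shares exonic sequence with Mast4, stood at 21.7, 48.5 and 56.4 in testis and 512, 373 and 357 in epididymis (log2 difference -3.35, SE 0.45, limma adjusted p = 0.00054). Tlr12, which detects profilin of protozoa, stood at 39.3, 63 and 23.1 and 456, 510.3 and 923 (log2 difference -3.92, SE 0.71, limma adjusted p = 0.0046). Tmem173, which encodes the adaptor STING, stood at 429.7, 365 and 372 and 985, 991 and 1198 (log2 difference -1.44, SE 0.22, limma adjusted p = 0.0011). No testis library overlapped the epididymis range for these 3 genes. Tlr3 and Unc93b1, which takes Toll-like receptors to endosomes, were also lower, with log2 differences of -1.48 and -1.05, Tlr3 not over the 6 libraries alone (adjusted p = 0.11). Tlr2, Tlr4 and Tlr7 did not pass, with adjusted p of 0.71, 0.57 and 0.77. Of 48 interferon-induced genes 1 was higher and 0 lower, with a median of -0.02, and 4 higher and 4 lower passed an unadjusted p below 0.05. That is below the share of all genes at this p, 1968 of 10522.

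Genes for purine signalling were lower in 4 of 23 members and higher in none, with 7 lower and 2 higher at an unadjusted limma p below 0.05 and 5 lower and 0 higher by edgeR. P2rx4, an ATP-gated channel, stood at 779.6, 655 and 475 in testis and 1557, 1289 and 1312 in epididymis (log2 difference -1.15, SE 0.26, limma adjusted p = 0.021). Slc29a3, the nucleoside transporter of the lysosome, stood at 277, 274 and 191 and 968, 887 and 949.8 (log2 difference -1.93, SE 0.25, limma adjusted p = 0.0004). Trpm2, a calcium channel opened by ADP-ribose, was among the most separated genes of the comparison, at 256, 135 and 223 against 2207, 2201 and 2166 (log2 difference -3.47, SE 0.26, limma adjusted p = 4.1e-06), and the brain mean was 647. Every testis library was below every epididymis library for the 3 genes. Of 43 ion channel and pump genes, Trpm2 and Atp2a2 were lower and Atp2a3 was higher. Of 173 members whose symbols open with Slc and a digit, 7 were lower and none was higher over the 9 libraries, and 3 lower over the 6, so the 4.05% called lay near the 4.9% of all genes. They include Slc38a6, at 157, 197 and 268 against 669, 669.7 and 1026. Slco2b1, an organic anion carrier picked once values were known, stood at 1089, 1295 and 1144 and 2944, 3167 and 3132 (log2 difference -1.39, SE 0.17, limma adjusted p = 0.00029).

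Adhesion genes also went both ways. Of 17 integrin genes, 4 were lower (Itgam, Itgax, Itgb5 and Itga6) and 2 higher (Itgb1 and Itgb7), the latter not over the 6 libraries (adjusted p = 0.065 and 0.062). Itgb1, the shared beta1 chain, stood at 1437, 1533 and 1027 in testis and 700.0, 833 and 639 in epididymis, and Itga6, the laminin-binding chain, at 624, 906 and 947 and 1970.0, 1737 and 1381 (log2 difference -1.05, SE 0.22, limma adjusted p = 0.013). Itgax (log2 difference -6.50, SE 1.56, limma adjusted p = 0.027) lost its call in 5 of the 6 fits without 1 library of these organs. F11r, the junctional adhesion molecule JAM-A, stood at 2128, 2911 and 2702 and 6174, 6073 and 6216 (log2 difference -1.27, SE 0.18, limma adjusted p = 0.00077), and its libraries within an organ lay close together. Jaml, a JAM-like protein of leukocytes, stood at 1383, 1969.5 and 1245 and 58.2, 132 and 17.2 (log2 difference 4.84, SE 1.03, limma adjusted p = 0.014). It lies within 100000 bases of Cd3d on chromosome 9. Alcam, an adhesion molecule of the immunoglobulin family, stood at 215, 194 and 240.2 and 0.909, 1.88 and 3.23 (log2 difference 6.25, SE 1.38, limma adjusted p = 0.018). Of 25 matrix genes 3 were higher and 3 lower. Adamts1, an aggrecan-cleaving protease, was at 25.9, 217 and 205 with no read in epididymis, at least 51-fold higher (log2 difference 6.73, SE 0.90, limma adjusted p = 0.00054). Mmp14, the membrane-bound collagenase, stood at 218, 56.5 and 250.5 against 835, 487 and 747 (log2 difference -2.20, SE 0.53, limma adjusted p = 0.027).

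Regulators of actin changed in both directions. Of 64 regulators of actin and small GTPases, 4 were higher and 4 lower. All testis libraries lay above all epididymis libraries in 18 and below in 9, against 1242 and 1007 of all 10522 genes. Flna, which crosslinks actin filaments, stood at 794, 1054 and 536 in testis and 124, 273 and 115 in epididymis (log2 difference 2.28, SE 0.41, limma adjusted p = 0.0048). Actb stood at 22843, 24946 and 22814 and 13048, 13981 and 14120.1 (log2 difference 0.78, SE 0.18, limma adjusted p = 0.021) and was not called in any of the 6 fits without 1 library of these organs. Vav1, which activates small GTPases, was lower at 547, 467 and 516 against 1169, 1033 and 1219 (log2 difference -1.16, SE 0.22, limma adjusted p = 0.0057). The list of myoid, stromal and smooth muscle genes was higher in the same testis libraries, though none of its 7 members was called by limma, edgeR or DESeq2 and 1 was higher and 0 lower at an unadjusted limma p below 0.05. Acta2, the actin of smooth muscle, stood at 149, 171 and 156 in testis and 0, 73.2 and 1.08 in epididymis, and the part of such cells in the actin and contractile genes was not tested. S100a6, a calcium-binding protein, stood at 1393, 2635 and 1421 and 105, 78.8 and 112 (log2 difference 4.14, SE 0.48, limma adjusted p = 0.00021), and was the 1 higher gene of 13 on the list of S100 and annexin proteins. Anxa3 was the 1 lower, at 7.25, 4.85 and 52.1 against 425, 249.5 and 181 (log2 difference -4.30, SE 0.72, limma adjusted p = 0.0026). The median of the 13 was 1.99, against 0.09 over all genes. All testis libraries lay above all epididymis libraries in 6 of the 13 and below in 1. Chosen after their values were seen, Ahnak, a giant scaffold protein of the membrane, stood at 2982, 2529 and 3126 against 112, 130.4 and 163 (log2 difference 4.42, SE 0.61, limma adjusted p = 0.00075), and the LIM protein gene Crip1 at 1364, 1549 and 1469 against 60.9, 91.9 and 119.7 (log2 difference 4.04, SE 0.41, limma adjusted p = 5.3e-05). Lsp1, Cnn2, Myl6 and Lgals1, also chosen after their values were seen, had log2 differences of 3.00, 3.17, 1.36 and 4.62, and Lgals1 lost its call in each of the 6 fits without 1 library. S100a6, Ahnak and Crip1 kept theirs without testis replicate 1 and epididymis replicate 3 (adjusted p = 0.013, 0.036 and 0.0048).

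Genes of TGF-beta signalling were lower in 3 of 27 members and higher in none, with 6 lower and 1 higher at an unadjusted limma p below 0.05 and 3 lower by edgeR. The fit over only the 6 libraries called 2 members lower and 1 higher. Pmepa1 is a target gene and feedback inhibitor of the pathway, and it stood at 420.3, 349 and 565 in testis and 6060.0, 5772 and 6361 in epididymis (log2 difference -3.79, SE 0.23, limma adjusted p = 4.4e-07), the lowest adjusted p among the members, and the brain mean was 2975. Tgfbr1, the type I receptor, stood at 1374, 1006 and 1442 against 3216, 2543 and 2240.3 (log2 difference -1.07, SE 0.20, limma adjusted p = 0.0062). The transcriptional repressor Ski was lower too (log2 difference -0.85, SE 0.20, limma adjusted p = 0.024), though not over the 6 libraries (adjusted p = 0.0529). The other 24 members did not pass, among them Smad7, another feedback inhibitor, at 51.8, 235 and 174 against 475, 329 and 293 (limma adjusted p = 0.09), and the ligand Tgfb1 (adjusted p = 0.61). In the Notch and Wnt list, 4 of 29 members were lower and 1 higher. Hes1, a target of Notch, stood at 562, 422 and 712 in testis and 2942, 1822 and 1261 in epididymis (log2 difference -1.77, SE 0.32, limma adjusted p = 0.0043). Adam17, the protease that sheds TNF and cleaves Notch, stood at 1446, 1592 and 1547 and 2102, 3145 and 3099.6 (log2 difference -0.84, SE 0.20, limma adjusted p = 0.025), and shares exonic sequence with Iah1. Sema4c, a semaphorin, was the only called member of 18 guidance genes, at 62.1, 146 and 103 and 341, 516 and 543 (log2 difference -2.21, SE 0.39, limma adjusted p = 0.0038).

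MHC class II was represented among the higher genes by both chains of I-A. H2-Aa, the alpha chain of I-A, stood at 12632, 15012 and 16153 in testis and 5805, 5110.1 and 4031 in epididymis (log2 difference 1.56, SE 0.22, limma adjusted p = 0.00088). H2-Ab1, its beta chain and neighbour on chromosome 17, stood at 6890.0, 7061 and 9686 and 4088, 2756 and 2635 (log2 difference 1.33, SE 0.27, limma adjusted p = 0.0096). H2-Eb1 stood at 2636, 3046 and 3465 and 1385, 955 and 964, and the invariant chain gene Cd74 at 2995, 4004 and 3945 and 1852, 1172 and 2283. For all 4 genes every testis library was above every epididymis library. H2-Eb1 and Cd74 did not pass over the 9 libraries (adjusted p = 0.34 and 0.44) but did over the 6 (adjusted p = 0.0013 and 0.022). Both also passed without brain replicate 2 (limma adjusted p = 0.0042 and 0.044), but not without brain replicate 1 or 3. Over the 6 libraries with the gene filter of the 9, H2-Eb1 passed (limma adjusted p = 0.012) and Cd74 did not (0.08). Of 18 members of the list, 2 were higher and 1, Ctss, was lower, with a median of 1.02. The transactivator Ciita did not pass (adjusted p = 0.73). None of 17 MHC class I genes was called by limma or edgeR, with 3 higher and 1 lower at an unadjusted p below 0.05 and 1 higher by DESeq2. H2-K1 stood at 2456, 2392 and 3058 and 2109, 1989 and 1817. Dendritic cell transcripts, which carry class II, were higher in the same libraries, and their part was not tested.

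Of 56 macrophage and lineage transcription factors, 2 were higher and 3 lower. Klf4, which is also on the stress list, stood at 7915, 6457 and 5146 in testis and 1564, 1842 and 1837 in epididymis (log2 difference 1.88, SE 0.25, limma adjusted p = 0.00053), and Zfp36l1, which encodes a protein that degrades AU-rich mRNA, at 1398, 996 and 1231 and 382, 201 and 350.4 (log2 difference 1.99, SE 0.29, limma adjusted p = 0.00098). Irf8, which directs the macrophage lineage, was lower at 1798, 2193 and 2053 against 3520.0, 3524 and 3407 (log2 difference -0.79, SE 0.17, limma adjusted p = 0.016). Nfe2l2, the antioxidant regulator NRF2, was lower as well, at 647, 943 and 832 against 1313, 1489 and 1842 (log2 difference -0.94, SE 0.23, limma adjusted p = 0.03). The organs did not overlap for these 4 genes, and the calls of Klf4 and Zfp36l1 held in each of the 6 fits without 1 testis or epididymis library. The lineage factors Spi1 and Maf did not pass, with adjusted p of 0.9 and 0.066. Bhlhe41, a transcriptional repressor of the clock, stood at 117, 152 and 64.1 and 701, 788 and 653 (log2 difference -2.76, SE 0.34, limma adjusted p = 0.00033). Chosen after their values were seen, Hoxb3 was at 0, 0.808 and 0 in testis and 23.6, 47.8 and 83 in epididymis and Dach1 at 0, 0 and 0 and 12.7, 94.7 and 109, neither called over the 6 libraries (adjusted p = 0.11 and 0.09).

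Genes that respond to glucocorticoid or androgen were higher where called, at 2 of 19 members higher and 0 lower, with a median of 0.99. At an unadjusted limma p below 0.05 there were 5 higher and 0 lower, edgeR called 1 higher, and 7 members had all testis libraries above all epididymis libraries. Over all 10522 genes this separation held for 1242. Cdkn1a, the cell cycle inhibitor p21, stood at 1695, 1766 and 1427 in testis and 239, 208 and 315 in epididymis (log2 difference 2.69, SE 0.26, limma adjusted p = 4.9e-05). Tsc22d3, the glucocorticoid-induced leucine zipper, stood at 365, 274 and 422 and 101, 148 and 138 (log2 difference 1.44, SE 0.37, limma adjusted p = 0.038) and was not called over the 6 libraries (adjusted p = 0.069). Cdkn1a is also a target of p53, and its call held in each of the 6 fits without 1 library of these organs, while that of Tsc22d3 held in none of them. Fkbp5, which tunes the glucocorticoid receptor, stood at 141, 154 and 179 and 30.9, 35.6 and 2.16 and just missed the threshold (adjusted p = 0.0511). The glucocorticoid receptor gene Nr3c1 did not pass (adjusted p = 0.9). Among 31 nuclear receptors, Rora, Nr4a3 and Rara were higher and none was lower, and of these Rora stood at 600.5, 597 and 362 against 73.6, 18.8 and 114 (log2 difference 3.20, SE 0.74, limma adjusted p = 0.023).

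Feedback inhibitors of signalling were higher in 6 of 45 members and lower in 1. Besides stress-induced Dusp1, at 3765, 4002 and 5555 in testis and 1295, 1066 and 720.2 in epididymis (log2 difference 2.13, SE 0.28, limma adjusted p = 0.00051), they included Gadd45b, at 299, 407 and 427 and 51.8, 46.9 and 108 (log2 difference 2.52, SE 0.58, limma adjusted p = 0.023), and Cish, a cytokine-induced inhibitor of STAT signalling, at 266, 431 and 192 and 17.3, 0.938 and 2.16 (log2 difference 5.87, SE 1.42, limma adjusted p = 0.028). The lower gene was Rgs1, which damps chemokine receptor signalling, at 1933, 2411 and 2295 against 6992, 7195 and 7826 (log2 difference -1.73, SE 0.17, limma adjusted p = 5.3e-05). Rgs1 was the steadiest of these within an organ, while Cish lost its call in 5 of the 6 fits without 1 library. Mcl1, which protects cells from apoptosis, stood at 5144, 5173 and 6950.5 and 2675, 2383 and 2282 (log2 difference 1.22, SE 0.19, limma adjusted p = 0.0014) and was among 3 higher and 0 lower of 38 survival genes, with 7 higher and 0 lower at an unadjusted p below 0.05 and 3 higher by edgeR. The 7 of 38 lie near the share over all genes in either direction, 1968 of 10522, but all 7 were higher. All testis libraries lay above all epididymis libraries in 6 members and below in 1, against 1242 and 1007 of all 10522 genes. The kinase gene Pim1, picked once values were known, stood at 2811, 1965 and 3826 and 945, 649 and 578 (log2 difference 1.96, SE 0.36, limma adjusted p = 0.0054). The Dusp1 gene belongs to the stress genes that were higher in testis in 22 of 32 members, and how far handling of the tissue moved these levels was not tested.

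Hexokinase, the first enzyme of glycolysis, differed by isoform. Hk1 was higher in testis, at 691, 481 and 610.4 against 130.0, 120.1 and 62.5 (log2 difference 2.55, SE 0.38, limma adjusted p = 0.001), and Hk2 lower, at 2175, 1547 and 1709.8 against 4264, 3979.8 and 5676 (log2 difference -1.35, SE 0.20, limma adjusted p = 0.00095). No library of one organ entered the range of the other for either gene, and both calls held without testis replicate 1 and epididymis replicate 3 (adjusted p = 0.023 and 0.02). They were the only called members of 33 genes of glycolysis and the pentose phosphate pathway. Of 71 nuclear genes of oxidative phosphorylation, 2 were higher and 0 lower, or 2.82%, near the 2.78% higher over all genes. Their median was 0.61, and 21 had all testis libraries above all epididymis libraries and none the reverse. Over all 10522 genes, 1242 lay above and 1007 below in this way. At an unadjusted limma p below 0.05 the list had 20 higher and 0 lower, and edgeR called 1 higher. Atp5l, a subunit of ATP synthase, stood at 5182, 6062 and 4947 and 2847, 3048 and 2911 (log2 difference 0.87, SE 0.19, limma adjusted p = 0.015). Of 55 genes of the mitochondrial ribosome and import, Mrpl37 alone was called, lower in testis (log2 difference -2.20, SE 0.52, limma adjusted p = 0.026).

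Iron genes were lower where they were called. Cp, the copper ferroxidase ceruloplasmin, stood at 215, 33.1 and 123 in testis and 1138, 1195 and 1813 in epididymis (log2 difference -3.80, SE 0.88, limma adjusted p = 0.023), shares exonic sequence with Hps3 and lost its call in 5 of the 6 fits without 1 library. Trf, which encodes transferrin and is also a gene of Sertoli cells, stood at 216, 389 and 551 and 1534, 1217 and 959.5 (log2 difference -1.75, SE 0.32, limma adjusted p = 0.0045). The other 25 of 27 members did not pass, among them the ferritin chain Fth1, whose libraries overlapped at 3546, 4502 and 9661 and 9430.0, 4997 and 3044. At an unadjusted limma p below 0.05 there were 5 lower and 0 higher, and edgeR called 2 lower. The 5 of 27 lie near the share over all genes in either direction, 1968 of 10522, but all 5 were lower. All testis libraries lay above all epididymis libraries in 2 members and below in 4, against 1242 and 1007 of all 10522 genes. Among 43 redox genes, 4 were higher, including 3 genes of the glutathione transferase mu cluster on chromosome 3, and 2 were lower. Gstm1 stood at 547, 327 and 627 in testis and 20.9, 0 and 0 in epididymis (log2 difference 7.43, SE 1.60, limma adjusted p = 0.015). Gstm2 and Gstm5, with limma adjusted p of 0.04 and 0.026 over the 9 libraries and 0.0545 and 0.042 over the 6, may share reads with it, and each of the 3 lost its call in most fits without 1 library. In epididymis, Gstm1 had reads in replicate 1 alone. Sod1 was higher (log2 difference 1.21, SE 0.33, limma adjusted p = 0.0494), though not over the 6 libraries (adjusted p = 0.0544), and Prdx5, which shares exonic sequence with Trmt112, lower (log2 difference -1.30, SE 0.30, limma adjusted p = 0.023).

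Beyond the ribosomal proteins, the translation factors that were called were higher in testis, against a share of 2.78% higher over all genes. Of 47 translation factors, 8 were higher and 0 lower, with a median of 0.50, 18 higher and 1 lower at an unadjusted limma p below 0.05, and 7 higher and 0 lower by edgeR. Tpt1, which encodes a translationally controlled tumour protein, stood at 14856, 19045 and 12744 in testis and 4825, 7144 and 6115 in epididymis (log2 difference 1.37, SE 0.20, limma adjusted p = 0.00095). Eef1b2, an exchange factor for the elongation factor eEF1A, stood at 3103, 4658 and 3774 and 1894, 1812 and 1606 (log2 difference 1.10, SE 0.21, limma adjusted p = 0.0057) and shares exonic sequence with Ndufs1. The proteasome and splicing lists were called at 5.66% and 4.92%, near the 4.9% of all genes in either direction. All calls in both lists were higher, for which the share over all genes was 2.78%. Of the proteasome and ubiquitin list 3 of 53 were higher and 0 lower, among them the conjugating enzymes Ube2b and Ube2s, with 11 higher and 0 lower at an unadjusted p below 0.05 and 1 higher by edgeR. The 11 of 53 lie near the share over all genes in either direction, 1968 of 10522, but all 11 were higher. All testis libraries lay above all epididymis libraries in 16 members and below in 0, against 1242 and 1007 of all 10522 genes. With equal totals per library the higher members numbered 6 among translation factors, 1 among proteasome and ubiquitin genes and 1 among splicing genes. Of 61 splicing genes, 3 were higher and 0 lower, with 19 and 3 at an unadjusted p below 0.05 and 2 higher by edgeR. Over all genes, 1968 of 10522 passed that p in either direction. The histone list had 4 of 15 members higher and 0 lower, with 5 and 0 at an unadjusted p below 0.05 and 3 higher by edgeR. They included the replacement histone gene H3f3a, at 1508, 1694 and 1492 and 615, 548 and 686 (log2 difference 1.35, SE 0.24, limma adjusted p = 0.0048), and H3f3b (log2 difference 0.98, SE 0.18, limma adjusted p = 0.0045). Processed pseudogenes of these housekeeping genes can share their reads. None of the translation, proteasome, splicing or histone genes was called in the fit with no variance trend.

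Of 42 cell division genes 3 were higher and 0 lower, with 4 higher and 1 lower at an unadjusted limma p below 0.05 and 3 higher by edgeR. In either direction the unadjusted counts are below the share over all genes, 1968 of 10522. Cdk6, a kinase of the early cell cycle, stood at 935, 1569 and 1387 in testis and 569, 574 and 397 in epididymis (log2 difference 1.32, SE 0.26, limma adjusted p = 0.0082), and Hmgb2, a chromatin protein of dividing cells, had a log2 difference of 1.06. Ccnd2 lost its call in each of the 6 fits without 1 library. The proliferation markers Mki67 and Top2a overlapped between the organs, at 146, 235 and 101 and 546, 641 and 348 in testis and 244, 68.5 and 75.5 and 401, 514 and 479.8 in epididymis.

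The largest differences were those of genes with few or no reads in one organ. Among the genes highest in testis were Insl3, the peptide hormone of Leydig cells, at least 382-fold, Aldh1a1, a retinal dehydrogenase, at least 133-fold, and the malic enzyme gene Me1, at least 130.3-fold. The steroid enzymes Cyp17a1 and Hsd17b3 were at least 118-fold and 130.3-fold higher. Fabp3, which binds fatty acids, stood at 194, 80.0 and 259 in testis, and Defb19, a beta-defensin, at 391, 105 and 199, neither with a read in epididymis. Insl3 shares exonic sequence with Jak3. Leydig cell transcripts were higher in the same libraries, 5 of 8 members of that list being higher with a median of 5.01, and their part in the level of Aldh1a1, Me1, Fabp3 and Defb19 was not tested.

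Among the genes with few or no reads in testis, Npnt, which encodes the matrix protein nephronectin, stood at 161, 169.8 and 258 in epididymis, at least 72.7-fold lower in testis. Spint1, a serine protease inhibitor of epithelia, was at least 52.1-fold lower. Defb20, a beta-defensin of the epididymal epithelium, was at least 80.4-fold lower. Defb25, another beta-defensin, had 3 reads in testis against 330.0, 289.8 and 497 normalised reads in epididymis, a ratio of 412 with an exact 95% counting interval from 141 to 1999.9. Adam7, an ADAM family gene of the epididymal duct, stood at 0, 16.2 and 0 and 176, 294 and 112 (log2 difference -6.13, SE 1.53, limma adjusted p = 0.034). The genes Lypd8 and Vnn3, chosen after their values were seen, had no read in testis or brain and stood at 104, 79.7 and 71.2 and 75.5, 116 and 48.5 in epididymis. Genes of the epididymal epithelium were higher in the same epididymis libraries, 2 of the 6 members of that list being called, and their part in the level of Spint1, Npnt, Lypd8 and Vnn3 was not tested. Npnt and Spint1 were also present in brain macrophages, at 85 and 153, whereas Defb20 was at 0 there. Lhfpl2, a tetraspan membrane protein, was lower in every testis library, at 38.3, 44.4 and 149.6 in testis and 1087, 1002 and 1057 in epididymis (log2 difference -4.02, SE 0.41, limma adjusted p = 5.3e-05).

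Olfactory receptor genes numbered 208 among the members, of which 3 were higher in testis (Olfr784, Olfr77 and Olfr1221) and 0 lower, or 1.44%, below the share over all genes. Olfr784 stood at 996, 334 and 61.6 in testis with no read in epididymis, with a wide spread among the testis libraries. Zinc finger genes with symbols in Zfp, 215 in number, were called in 1.4%, and 133 Tmem genes in 3.01%. Of 20 genes with symbols in Gpr, 2 were lower and 0 higher, with a median of -1.13, which was -0.50 without testis replicate 1 and epididymis replicate 3.

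**Figure D5:**
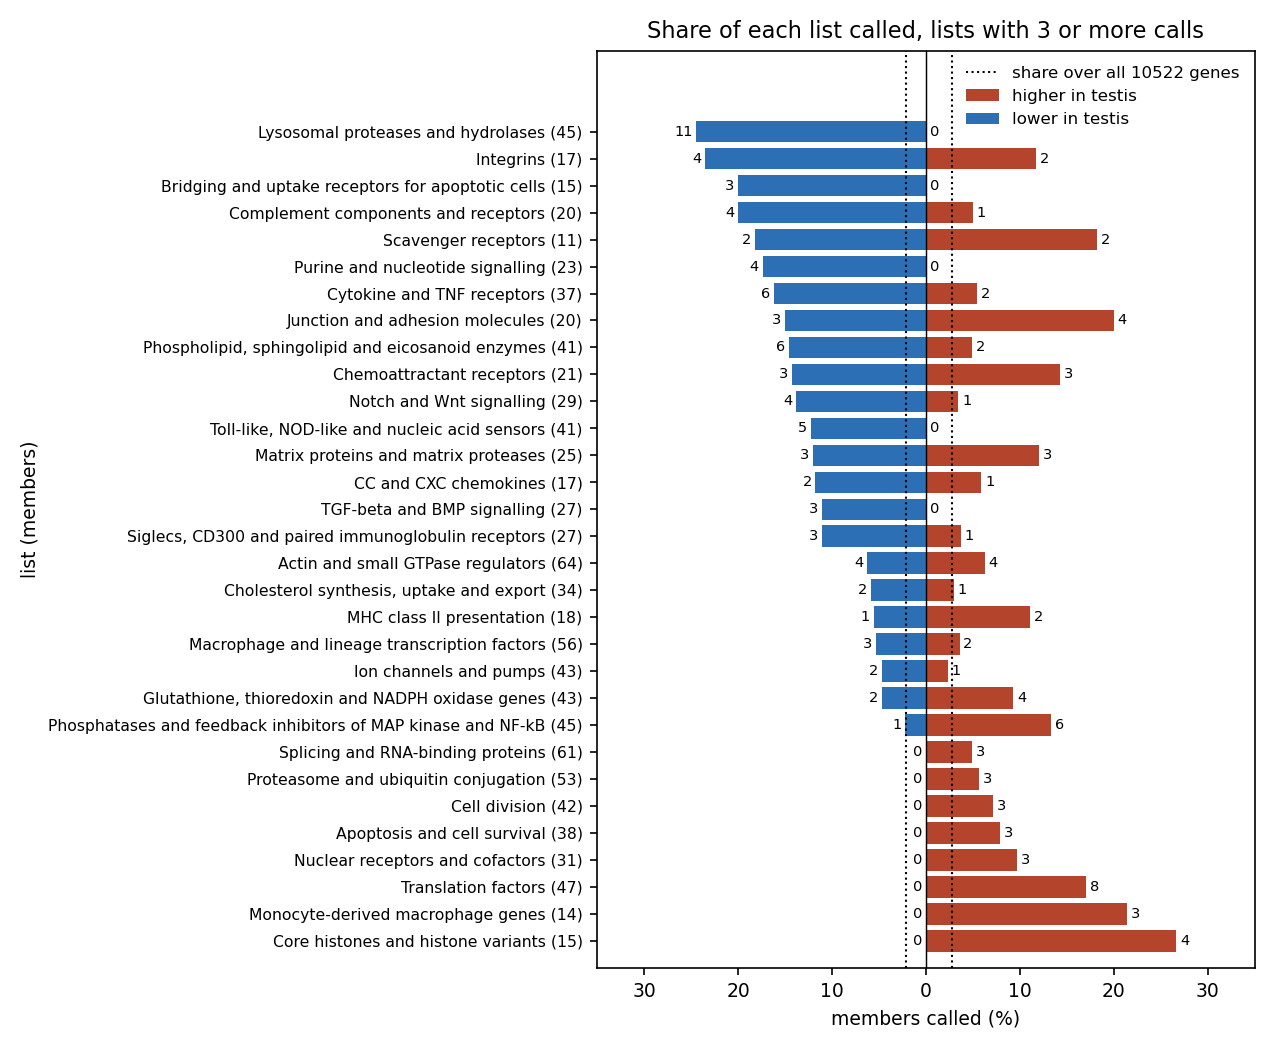
Percentage of the members of each list called higher (right) or lower (left) in testis, for functional lists with at least 10 members and 3 calls, without the microglial and stress lists, with the number called beside each bar. Dotted lines mark the shares over all genes, 2.78% higher and 2.12% lower, and the lysosomal list with 11 of 45 lower has the longest bar to the left.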

How the data were processed

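RNA of sorted macrophages was sequenced from testis, epididymis and brain, 3 libraries each. The deposited table gives normalised read counts per gene, a signal that the authors scaled by 1 factor per library. CASAVA 1.8, Bowtie2 2.2.1, Partek 6.6, DESeq2 and mm10 are named, per the submitters' processing notes. How reads were counted, and on which annotation, is not given in the sources used here. Libraries were made with an unstranded kit from 10 ng of RNA, per the labels' protocols. Every value was a whole multiple of the value of 1 read (100% of values, within 1e-06 of a read), so reads were recovered, from 2966349 to 4458688 per testis or epididymis library.

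Differences of log2(value + 1) were tested with limma 3.58.1 (R 4.3.3) over the 9 libraries and the 11766 genes that reach 10 in 3 of them, with a trend of the variance on the level. Benjamini-Hochberg adjustment ran over these 11766 genes, which include the 10522 members, and in the fit over the 6 libraries over the members. The script was tested on simulated data. Alternatives were a fit over the 6 libraries, no trend, other pseudocounts, filters and scalings, libraries left out, and edgeR 4.0.16 and DESeq2 1.42.0 on the reads. Promoters came from RefSeq, and 15252 symbols matched GENCODE M21, 40 RefSeq symbols and 81 RefSeq synonyms, with 61 unmatched.

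The members and the gene lists were chosen with earlier results of these data known. Named genes are the 15 largest differences in each direction among genes called in both fits, not overlapping, with a mean of 100 or more in the higher organ, and up to 4 called members per list and direction. Stress, microglial and ribosomal genes, clones and small RNAs were left out of the first group. Genes named as not passing are list members given for context. Some list members are not reported here by name.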

Additional observations from a re-analysis of the deposited data

How the results depend on the processing

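The direction of the 117 called genes whose statistics are given reversed under no alternative run. Over the 6 libraries alone 9 of them lost their call, without the trend of the variance 85, with edgeR 13, with DESeq2 5, with equal totals 5 and with quantile normalisation 8. The 6 libraries with the gene filter of the 9 ended 33 calls. Without both testis replicate 1 and epididymis replicate 3, 56 of the 117 lost their call. Leaving out 1 library ended between 28 calls (testis replicate 3) and 39 calls (epididymis replicate 2) for testis and epididymis libraries, and between 6 and 9 for brain libraries. Among them Actb, Gimap3, Lgals1 and Tsc22d3 lost their call in all 6 fits without 1 testis or epididymis library, and Adam17, Adam7, C1qc, Ccl6, Cish, Cp, Gadd45b, Gstm2, Gstm5, Hexa, Itgax, Kit, Mrpl37, P2rx4, Sod1, Srebf2, Tnfrsf11a and Unc93b1 in 5 of them.

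The count of genes higher in testis, 293 as reported, was 126 without the trend, 195 with edgeR and between 140 and 259 with 1 library left out. The count lower in testis, 223 as reported, was 62 without the trend and between 113 and 188 with 1 library left out. Equal totals gave 227 higher and 307 lower, and quantile normalisation 211 and 249. DESeq2 called 393 higher and 305 lower. Alternatives chosen after seeing the data were the fit without testis replicate 1 and epididymis replicate 3, with 91 higher and 106 lower, and the 6 libraries with the gene filter of the 9, with 158 higher and 92 lower. The cause of these shifts was not tested, other than that fewer libraries enter some of the fits. No paired analysis was possible because the labels give no replicate numbers shared between organs. At between 2966349 and 4458688 reads per library, genes of a few reads cannot be told from absent ones.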
